A study of Mus musculus with 19 samples.

Results

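Loss of Batf3 was compared between 2 populations of type 1 conventional dendritic cells (DC1) from skin-draining lymph nodes (SDLN) of mice, resident DC1, which live in the node, and migratory DC1, which arrive there from the skin. The quantity of interest was a difference of differences, the Batf3-/- minus WT value in migratory DC1 minus the same value in resident DC1, taken for every gene. It used all 11 lymph node arrays, out of 19 arrays in the series. The groups were read from the array titles: 3 arrays of WT resident DC1, 3 of Batf3-/- resident DC1, 2 of WT migratory DC1 and 3 of Batf3-/- migratory DC1. Both genotypes were on the C57Bl/6j background, and the cells of all 4 groups were Irf8VENUS+, so each group carried a fluorescent reporter of Irf8, the WT controls included. Batf3-/- is a deletion in every cell of the animal and not in DC1 alone. DC1 from inguinal, cervical and brachial nodes were sorted by surface staining for CD11c, MHC class II and CD24 and against B220, EpCam and CD172. Resident cells were the gate with intermediate MHC class II and high CD11c, and migratory cells the gate with high MHC class II and intermediate CD11c. The labels of these arrays give no age and no treatment, and whether the replicate arrays stem from different mice is not stated, so p-values measure only how these arrays scatter, which may be technical. Values are deposited log2 intensities, on which 1 unit is a change of 2 times.

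BATF3 is a transcription factor of the AP-1 family that pairs with JUN proteins and binds DNA together with IRF8, the lineage factor of DC1. It is known for keeping Irf8 transcribed in developing DC1, and Batf3-/- mice on this background lack most tissue DC1 but keep some DC1-like cells in lymph nodes. DC1 take up dead cells and present their antigens to CD8 T cells. On maturing, a dendritic cell lowers many genes of its resident identity and turns on a shared programme that includes the chemokine receptor CCR7, which guides it into the node.

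The labels were checked against genes that define each group. Batf3 read 8.15, 8.62 and 8.37 on the WT resident arrays and 5.96, 5.76 and 5.50 on the Batf3-/- resident arrays. In migratory cells Batf3 read 9.15 and 9.23 in WT and 6.02, 5.87 and 6.17 in Batf3-/-. Every array labelled Batf3-/- was thus below every WT array, and the difference between populations was -0.53 ± 0.26 (SE, limma adjusted p = 0.291), so Batf3 itself did not pass the test. Whether the probe set lies inside the deleted part was not examined. Ccr7 read 7.99 to 10.63 on the 6 resident arrays and 11.31 to 12.66 on the 5 migratory arrays, which did not overlap. Xcr1, the chemokine receptor that marks DC1, read 11.05, 11.09 and 11.34 in WT resident cells and 7.85 and 8.07 in WT migratory cells. Epcam, excluded by the sort, read 3.58 to 4.43 and stayed below the filter level of 4.82 on all 11 arrays. Sirpa, the gene of CD172, read 7.82 on WT resident replicate 1 against 5.31 and 5.67 on the other WT resident arrays.

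Array properties also moved with the groups. The SD of an array over all probe sets was 2.16 to 2.23 for resident arrays, 1.96 and 2.03 for WT migratory arrays and 2.16, 2.15 and 2.07 for Batf3-/- migratory arrays. Batf3-/- migratory replicate 3 stood apart from its group, with a mean correlation of 0.949 against 0.967 and 0.968 for the other Batf3-/- migratory arrays, and replicate 3 of the Batf3-/- resident group had the lowest correlation of that group at 0.972. The summed level of 17 B cell markers was 96.1 and 107 on the WT migratory arrays, 81.5 to 97.1 on the Batf3-/- migratory arrays and 78.5 to 84.4 on the resident arrays. Of these markers 1 was below the filter level in WT migratory cells, 5 in Batf3-/- migratory cells and 9 in each resident group. In WT migratory cells the B cell genes Cd79a (7.43 and 6.00) and Ms4a1 (5.36 and 6.34) were above the filter level. The summed level of 15 T cell markers ranged from 80.8 to 94.7 over the 11 arrays, with the highest value on a WT migratory array. In sorted bulk cells, fewer cells of a type and less RNA per cell cannot be told apart.

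The effect of Batf3 loss differed between the 2 populations for 148 of 11931 genes tested (1.24%; limma, Benjamini-Hochberg adjusted p under 0.05), and 2285 genes had an unadjusted p under 0.05. The difference was positive for 86 genes (0.721%), meaning that the Batf3-/- value stood higher against WT in migratory than in resident cells, and negative for 62 (0.52%). The median over all genes tested was 0.12 for the difference, -0.01 for the resident effect and 0.10 for the migratory effect. The called genes fell into 4 sets by the population with the larger effect and its sign. These sets are named after the larger effect: resident fall (34 genes), resident rise (28 genes), migratory fall (34 genes) and migratory rise (52 genes). The larger effect was itself called for 31 of the 34 resident-fall genes, 24 of 28 resident-rise genes, 33 of 34 migratory-fall genes and 52 of 52 migratory-rise genes. Against these stand 1.84% of all genes called for the effect in resident cells and 9.41% in migratory cells. Since the sets were drawn from the same contrast, those counts describe the sets and test nothing. The WT arrays are part of that contrast, so the counts of genes lower in WT migratory cells, given below by set, also test nothing. The share of such genes among all genes tested was not counted.

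**Figure D1:**
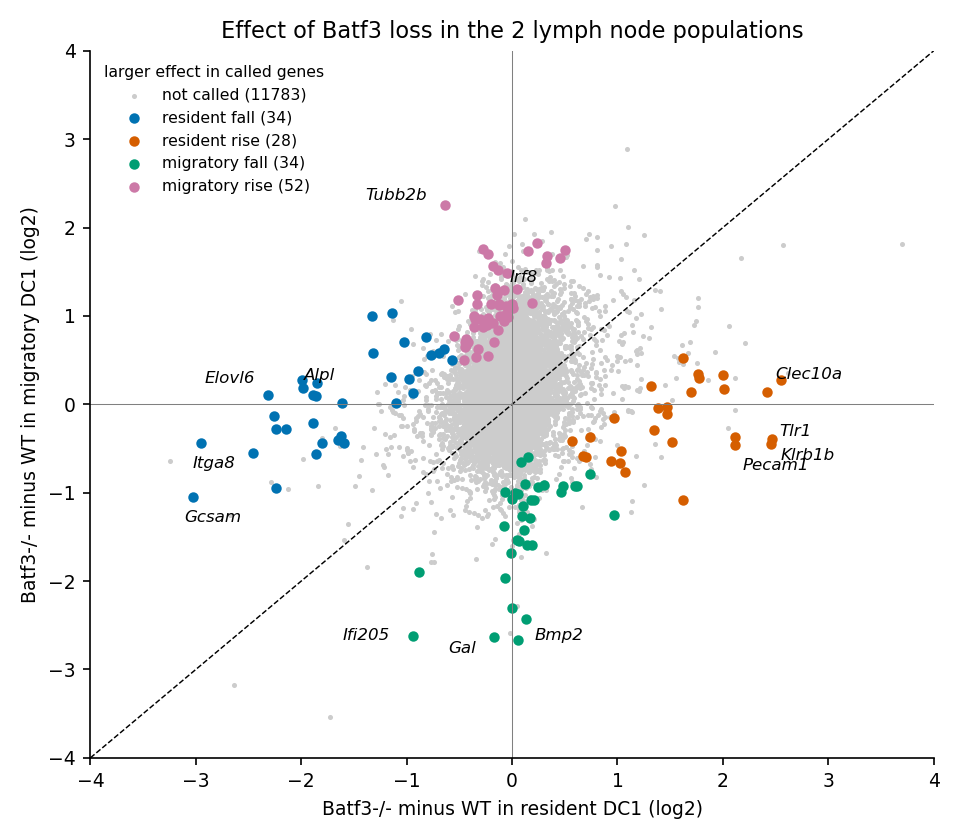
Batf3-/- minus WT in log2 units in resident DC1 (horizontal) against migratory DC1 (vertical) for the 11931 genes tested; gray points are the 11783 genes not called and colours mark the 148 called genes by their larger effect. On the dashed line the effects are equal; the resident sets lie along the horizontal axis and the migratory sets along the vertical axis.

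How many genes were called turned on single arrays. Without Batf3-/- migratory replicate 3, the array that stood apart, 1713 genes were called, and without WT migratory replicate 2 the count was 329. Leaving out any of the other 9 arrays lowered it: to 45 and 47 without Batf3-/- migratory replicates 1 and 2, to 39, 36 and 66 without Batf3-/- resident replicates 1, 2 and 3, to 35 without WT migratory replicate 1, and to 69, 17 and 18 without WT resident replicates 1, 2 and 3. In the fits that left out 1 array of WT migratory cells, the remaining array was assumed to vary like the other groups. The filter, 2 arrays at the filter level, was applied once to all 11 arrays and not again in the leave-outs. Bmp2 reached that level on the 2 WT migratory arrays alone. Without either of them it would not have passed the filter, so its calls in those fits rest on the array left out. A set of 16 genes was called in each of the 11 leave-outs: AF067061, Alpl, Bmp2, Elovl6, Fzd1, Gcsam, Itga6, Itga8, Klrb1b, Lima1, Lipa, Pecam1, Pik3cg, Plce1, S100a3 and Slc7a8.

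**Figure D2:**
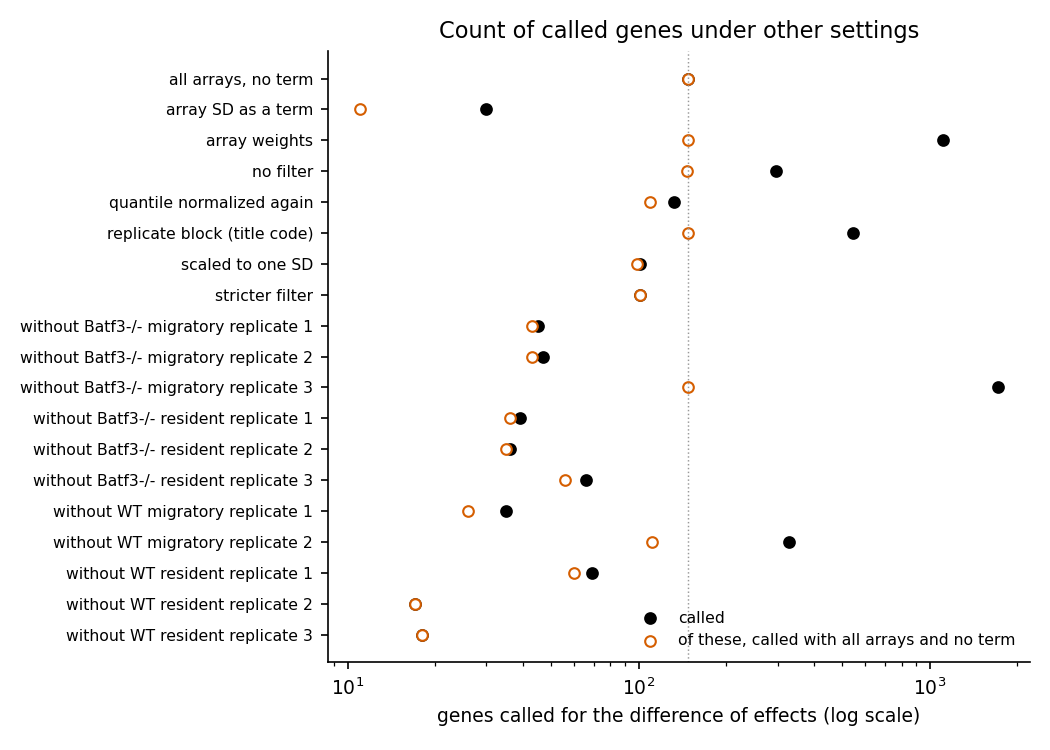
Number of genes called for the difference of effects (horizontal, log scale) with all 11 arrays and no added term, and under other settings and single leave-outs (rows). Filled points are all called genes and open points those also among the 148; the count runs from 17 without WT resident replicate 2 to 1713 without Batf3-/- migratory replicate 3.

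By median, resident-fall genes were highest in WT resident DC1, although single members such as Arpin and Lima1 were higher in Batf3-/- migratory cells. The median level of the set was 7.63 in WT resident, 5.96 in Batf3-/- resident, 5.53 in WT migratory and 5.64 in Batf3-/- migratory cells, and the median difference between populations was 1.65. In WT cells 33 of the 34 had a lower level in migratory than in resident DC1. Several belong to the DC1 identity list, among them Itga8, Gcsam, Fgd6, Snx22 and Fzd1. Itga8, which encodes an integrin alpha chain, read 6.51, 5.75 and 6.56 on the WT resident arrays and 3.47, 3.20 and 3.30 on the Batf3-/- resident arrays. In migratory cells Itga8 read 3.96 and 3.89 in WT and 3.32, 3.60 and 3.54 in Batf3-/-. Only the 3 WT resident arrays were above the filter level, so Itga8 entered the test through that group alone. The difference for Itga8 was 2.51 ± 0.29 (SE, limma adjusted p = 0.00354), from a resident effect of -2.95 and a migratory effect of -0.44. Gcsam, a signalling adaptor known from germinal centre B cells, read 8.98, 9.46 and 9.39 on the WT resident arrays and 6.08, 6.20 and 6.43 on the Batf3-/- resident arrays. Its migratory values were 5.74 and 6.12 in WT and 4.97, 4.92 and 4.77 in Batf3-/-, and the genotypes overlapped in neither population. Gcsam fell in both populations, by 3.03 in resident (adjusted p = 5.59e-06) and by 1.05 in migratory cells (limma adjusted p = 0.0114), and the difference of 1.99 ± 0.26 passed the test (adjusted p = 0.00657).

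Metabolic and transport genes stood beside these identity genes. Elovl6, which elongates saturated fatty acids, read 8.19, 7.95 and 7.79 in WT resident, 5.76, 5.73 and 5.49 in Batf3-/- resident, 4.72 and 4.74 in WT migratory and 5.09, 5.02 and 4.38 in Batf3-/- migratory cells. WT resident arrays were highest, Batf3-/- resident arrays lay between, and the migratory genotypes overlapped. The difference for Elovl6 was 2.41 ± 0.28 (adjusted p = 0.00354, limma). Slc7a8, a neutral amino acid transporter, read 6.81, 6.74 and 6.86 in WT resident cells against 4.58 to 5.11 in Batf3-/- resident cells and 3.97 to 4.48 on the 5 migratory arrays, and its difference was 2.15 ± 0.23 (limma adjusted p = 0.00259). Alpl, the tissue-nonspecific alkaline phosphatase, read 6.83, 6.75 and 6.76 in WT resident cells and 4.71 to 5.06 on the other 8 arrays, with a difference of 1.95 ± 0.18. For both genes WT resident arrays alone stood high and the migratory genotypes overlapped. The other named genes of the set had differences of 2.25 (Fzd1, a Wnt receptor), 2.13 (Snx22, a sorting nexin), 2.08 (Rtl8c) and 2.0 (Fgd6).

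Resident-rise genes had a median level of 5.63 in WT resident and 6.85 in Batf3-/- resident cells, and of 5.11 and 4.76 in WT and Batf3-/- migratory cells. The median difference was -1.58. Among them were surface receptors known from type 2 dendritic cells and myeloid cells. Clec10a and Mgl2, a pair of related C-type lectins that bind galactose-type sugars and mark type 2 dendritic cells, were both in the set. Over the 21 type 2 dendritic cell genes tested, the median resident effect was -0.13, with 3 called higher (0.847% of all genes) and 1 lower (0.997%). Clec10a read 6.32, 5.23 and 5.35 on the WT resident arrays and 8.00, 8.14 and 8.03 on the Batf3-/- resident arrays. On the migratory arrays Clec10a read 4.12 and 3.40 in WT and 4.27, 3.82 and 3.59 in Batf3-/-, all below the filter level. The Batf3-/- resident arrays were thus highest with no overlap, and the difference was -2.29 ± 0.41 (limma adjusted p = 0.0301). Mgl2 rose by 1.38 ± 0.20 in resident cells (limma adjusted p = 0.00219) and had a migratory effect of -0.04 ± 0.22, with 4.07 to 4.34 on the 5 migratory arrays. WT resident replicate 1, the array with the high Sirpa, also had the highest WT resident value of Clec10a and of Mgl2 (6.33 against 5.74 and 5.54).

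The resident-rise set also held receptors of innate immunity. Klrb1b, an inhibitory C-type lectin of the NK receptor family, read 5.14, 4.90 and 4.62 in WT resident, 7.59, 7.36 and 7.14 in Batf3-/- resident, 5.03 and 5.28 in WT migratory and 4.86, 4.94 and 4.49 in Batf3-/- migratory cells. Its Batf3-/- resident arrays stood alone, and the difference was -2.87 ± 0.27 (limma adjusted p = 0.000737). Tlr1, which pairs with TLR2 to sense bacterial lipopeptides, read 5.67, 4.90 and 5.43 in WT resident and 7.40, 7.82 and 8.16 in Batf3-/- resident cells. Its migratory values were 5.78 and 7.23 in WT and 5.89, 5.92 and 6.36 in Batf3-/-, so the migratory genotypes overlapped and the WT arrays differed by more than a unit. The difference for Tlr1 was -2.91 ± 0.50 (limma adjusted p = 0.0215). Pecam1, an adhesion molecule also listed as an endothelial marker, read 5.94, 5.67 and 5.52 in WT resident and 7.74, 8.03 and 7.69 in Batf3-/- resident cells, against 4.64 to 5.76 on the migratory arrays. The Batf3-/- resident arrays of Pecam1 did not overlap with any other group (difference -2.57 ± 0.31, limma adjusted p = 0.00387). Gpr82, an orphan receptor, and Ms4a6d and Ms4a4c, membrane proteins of the MS4A family, had differences of -2.48, -2.28 and -2.70.

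In WT cells 14 of the 28 resident-rise genes had a lower level in migratory than in resident DC1. For others, among them Ccl17 and Pglyrp1, the WT migratory level was above the WT resident level. Ccl17, a chemokine for CCR4-bearing T cells and part of the maturation list, read 6.33, 6.23 and 5.89 in WT resident and 8.20, 8.28 and 7.97 in Batf3-/- resident cells. In migratory cells Ccl17 was higher in all 5 arrays than in Batf3-/- resident cells, with overlap between genotypes at 9.61 and 8.90 in WT and 9.54, 9.37 and 9.85 in Batf3-/-. The difference for Ccl17 was -1.67 ± 0.32 (limma adjusted p = 0.0363). Pglyrp1, a bactericidal peptidoglycan-binding protein, rose by 2.01 ± 0.18 in resident cells and had a migratory effect of 0.17 ± 0.21 from WT values of 8.06 and 7.96.

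Migratory-fall genes had median levels of 4.84 and 4.96 in WT and Batf3-/- resident cells, 6.36 in WT migratory and 5.03 in Batf3-/- migratory cells. The median difference was -1.46, and the WT migratory level was below the WT resident one in 8 of the 34. Secreted factors were among them. Bmp2, a ligand of the TGF-beta family, read 6.92 and 6.21 on the WT migratory arrays and 4.53, 3.72 and 4.15 on the Batf3-/- migratory arrays. On the resident arrays Bmp2 read 4.44, 3.77 and 3.80 in WT and 4.01, 4.19 and 4.22 in Batf3-/-. The 2 WT migratory arrays were above all others, and the 9 others were below the filter level. Bmp2 thus entered the test through that group alone, since the filter asked for 2 arrays at that level. The difference for Bmp2 was -2.56 ± 0.36 (limma adjusted p = 0.00886). Gal, the neuropeptide galanin, read 8.67 and 7.03 in WT migratory, 5.27, 4.89 and 5.49 in Batf3-/- migratory and 3.77 to 4.16 on the 6 resident arrays. Its groups were ordered without overlap in migratory cells and overlapped in resident cells, with a difference of -2.47 ± 0.47 (limma adjusted p = 0.0346). Il23r, a subunit of the IL-23 receptor, read 7.66 and 6.79 in WT migratory, 5.38, 5.46 and 4.96 in Batf3-/- migratory and 3.57 to 3.97 on the resident arrays. As for Gal, the migratory genotypes were apart and the resident arrays lay below the filter level (difference -1.89 ± 0.32, limma adjusted p = 0.0212).

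Other migratory-fall genes were well above the filter level in both populations. Cxcl9, a chemokine for CXCR3-bearing T cells, read 11.42, 10.93 and 11.10 in WT resident and 11.12, 11.25 and 11.39 in Batf3-/- resident cells. In migratory cells Cxcl9 read 10.05 and 9.66 in WT and 8.11, 8.59 and 8.62 in Batf3-/-. The genotypes overlapped in resident and not in migratory cells, where Cxcl9 fell by 1.42 (limma adjusted p = 0.00419). Ifi205, an interferon-inducible gene of the DNA-sensor family, read 11.13, 11.06 and 10.99 in WT resident and 9.89, 10.13 and 10.35 in Batf3-/- resident cells, and 8.33 and 8.55 in WT migratory against 5.89, 5.24 and 6.32 in Batf3-/- migratory cells. Batf3-/- arrays were below WT arrays in both populations, with effects of -0.94 ± 0.23 in resident and -2.62 ± 0.26 in migratory cells and a difference of -1.69 ± 0.35 (limma adjusted p = 0.0435). Clec12a, an inhibitory lectin that senses uric acid crystals, fell in both, by 0.88 in resident (adjusted p = 0.00777) and by 1.90 in migratory cells (limma adjusted p = 0.000343). Rab27a, a GTPase of lysosome-related vesicles, read 6.07 and 5.96 in WT migratory and 5.14, 5.16 and 4.93 in Batf3-/- migratory cells against 6.04 to 6.53 on the resident arrays. The 3 Batf3-/- migratory arrays were the lowest of all 11 (difference -1.19 ± 0.20, limma adjusted p = 0.0215).

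Some migratory-fall genes are also expressed by lymphocytes. Cd69, an early activation antigen, read 8.07 and 9.14 in WT migratory and 7.14, 7.98 and 6.96 in Batf3-/- migratory cells, while in resident cells it read 7.08 to 7.60 in WT and 8.05 to 8.51 in Batf3-/-. Gpr183, the oxysterol receptor EBI2, read 9.39 and 9.06 in WT migratory and 8.22 to 8.37 in Batf3-/- migratory cells. The mean level of the B cell markers was 5.65 and 6.31 on those WT migratory arrays and 5.00, 5.71 and 4.79 on the Batf3-/- migratory arrays, and the immunoglobulin segment Igkv9-120 was itself a member of the set. The part of these markers in the results for Cd69, Gpr183 and Igkv9-120 was not tested.

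Migratory-rise genes made up the largest of the 4 sets and had a median level of 7.14 in WT resident, 6.84 in Batf3-/- resident, 6.24 in WT migratory and 7.52 in Batf3-/- migratory cells. In WT cells 41 of the 52 had a lower level in migratory than in resident DC1, a count that choosing genes by the same arrays favours. Irf8, the partner of BATF3, was a member. It read 12.39, 12.68 and 12.72 in WT resident and 12.49, 12.51 and 12.37 in Batf3-/- resident cells, and 10.46 and 10.97 in WT migratory against 12.37, 11.95 and 11.54 in Batf3-/- migratory cells. The WT migratory arrays were the lowest of the 11 and the resident genotypes overlapped. Irf8 rose by 1.24 ± 0.21 in migratory cells (limma adjusted p = 0.00833) and had a resident effect of -0.14 ± 0.18. The difference of 1.38 ± 0.28 passed narrowly (limma adjusted p = 0.0402) and was called in 2 of the 11 leave-outs. The cells of all 4 groups were labelled Irf8VENUS+, after a reporter of this gene. The stains listed for the sort do not say whether VENUS signal was gated, and its part in the Irf8 values was not tested.

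Tubb2b and Mylip had the largest differences of the migratory-rise set. Tubb2b, a beta tubulin, read 7.05 and 7.83 in WT migratory and 9.89, 10.08 and 9.12 in Batf3-/- migratory cells, against 6.95, 7.44 and 7.35 in WT resident and 7.22, 6.26 and 6.35 in Batf3-/- resident cells. Its Batf3-/- migratory arrays were the highest with no overlap (difference 2.90 ± 0.47, limma adjusted p = 0.0188). Mylip, a ubiquitin ligase that targets the LDL receptor for degradation, read 6.71 and 7.67 in WT migratory and 9.33, 8.91 and 8.63 in Batf3-/- migratory cells, with 8.70 to 9.47 on the resident arrays. Here the WT migratory arrays were the lowest of the 11 (difference 2.05 ± 0.40, limma adjusted p = 0.0386). Itga6, an integrin alpha chain that binds laminin, read 4.73 and 4.84 in WT migratory and 6.05, 5.88 and 5.83 in Batf3-/- migratory cells, against 4.64 to 5.30 on the resident arrays, and its difference of 1.47 ± 0.20 was called in each leave-out.

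**Figure D3:**
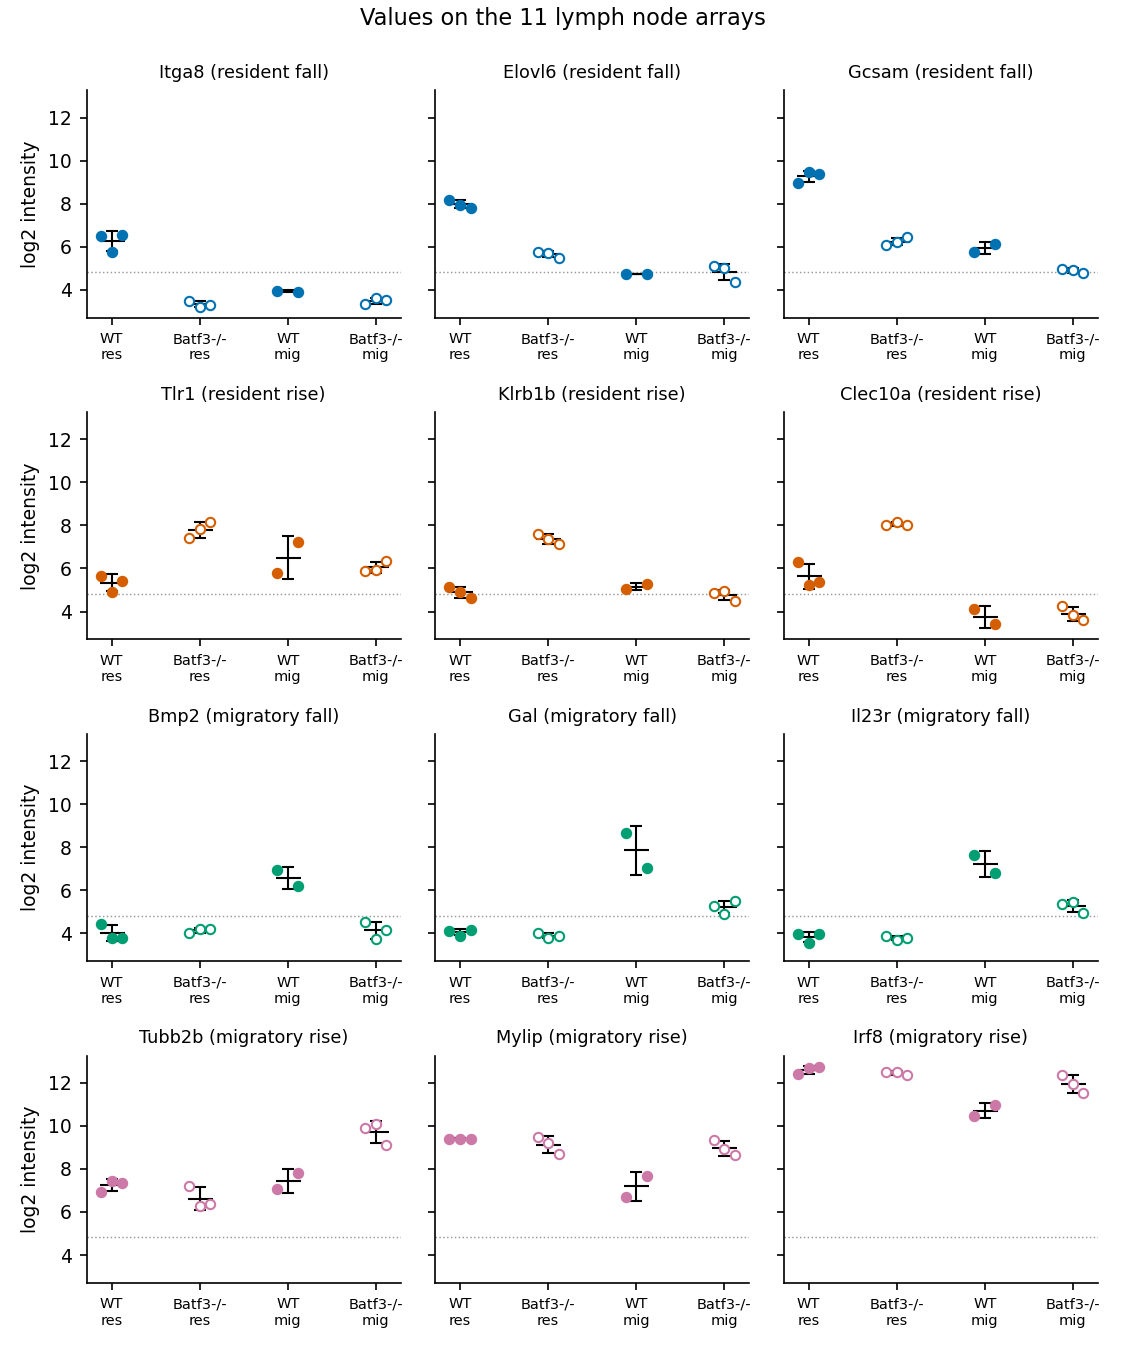
Log2 intensity on each of the 11 lymph node arrays for 3 genes of each set (rows of panels); filled points are WT, open points Batf3-/-, bars the group mean ± SD and the dotted line the filter level of 4.82. Itga8 and Elovl6 stand high in WT resident cells alone, Klrb1b and Clec10a in Batf3-/- resident cells, Bmp2, Gal and Il23r in WT migratory cells, and Irf8 is lowest in WT migratory cells.

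Many called genes had opposite signs of the 2 effects, which choosing genes by a large difference favours. The share of opposite signs among all genes tested was not counted, so these counts test nothing. Of the 148, 62 had a negative resident and a positive migratory effect, 45 a positive resident and a negative migratory effect, 21 were negative in both and 20 positive in both. In most of these genes 1 of the 2 effects did not pass the test. Both effects were called with opposite signs for 3 genes, named here after their values were seen: Arpin, Lipa and Tubb2a. Arpin, an inhibitor of the Arp2/3 actin-nucleating complex, read 8.11, 8.39 and 8.33 in WT resident and 7.53, 7.33 and 6.56 in Batf3-/- resident cells, and 7.70 and 8.02 in WT migratory against 8.99, 9.12 and 8.56 in Batf3-/- migratory cells. Batf3-/- arrays were below WT in resident and above WT in migratory cells with no overlap in either, and the effects were -1.14 ± 0.25 and 1.03 ± 0.27 (limma adjusted p = 0.0351 and 0.037). Lipa, the lysosomal acid lipase, read 8.08, 7.84 and 8.04 in WT resident and 7.02, 7.03 and 6.83 in Batf3-/- resident cells, and 4.62 and 5.10 in WT migratory against 5.75, 5.44 and 5.48 in Batf3-/- migratory cells. Its genotypes did not overlap in either population, and the difference of 1.72 ± 0.24 (limma adjusted p = 0.00886) was called in each leave-out. Tubb2a, a second beta tubulin close to Tubb2b in sequence, had effects of -0.65 and 0.63, and the signal of these 2 genes may not be fully separate on an array. Both effects were negative and called for 3 more genes, Gcsam, Clec12a and Trpm2.

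A gene at a low WT level has less range in which a fall can be read. For each called gene with a negative effect, the room in the other population was taken as the WT mean there minus the filter level of 4.82, and a gene was set apart when that room was smaller than the fall. By this rule 63 of 128 called genes with a fall were set apart, 34 for a fall in resident and 29 for a fall in migratory cells. A further 65 had room for an equal fall, and 20 called genes had no fall. Of the resident-fall set 23 of 34 were set apart, 9 of them with a WT migratory mean below the filter level itself. Itga8, Elovl6, Slc7a8, Fzd1, Alpl and Plce1 were among those 9. The filter level is the median of all values and not a measured background, and values below it were also read. For Itga8 the WT migratory mean was 3.93 ± 0.05 (SD, n = 2) against a resident fall of 2.95. Of the migratory-fall set 22 of 34 were set apart, 17 with a WT resident mean below the filter level, among them Bmp2, Gal and Il23r. Of all 11931 genes tested, 1395 had a WT resident mean and 972 a WT migratory mean below the filter level. The floor is also the filter level, so a gene that entered through a high group alone lies below it elsewhere partly by construction. The counts of genes below that level therefore describe the sets and test nothing. The other genes set apart were 11 migratory-rise and 7 resident-rise genes. In these the fall was the smaller of the 2 effects, so the rule concerns that smaller effect and not the rise.

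Genes with room showed the difference without that limit. In the resident-fall set 11 had room, including Arpin, Pi4k2a, Lima1, Tubb2a and Rtl8c. Pi4k2a, a kinase that makes phosphatidylinositol 4-phosphate, had 2.01 of room against a fall of 1.33, with 9.06, 8.99 and 8.75 in WT resident and 7.94, 7.89 and 7.00 in Batf3-/- resident cells and 6.57 and 7.08 in WT migratory against 8.08, 8.18 and 7.23 in Batf3-/- migratory cells. The genotypes were apart in both populations and in opposite order. In the migratory-fall set 12 had room, among them Cxcl9 (6.33 of room), Ifi205 (6.24), Clec12a (4.58), Gpr183 (3.19) and Cd69 (2.52). Nearest to the limit on its inner side were Syne1, with a fall of 0.94 and room of 0.93, and Mief1 (0.18 and 0.17), and on its outer side Casp4 (0.92 and 0.97) and Dcaf1 (0.34 and 0.40). The count moved with the floor: 31 genes were set apart with the first quartile of all values (3.60) as the floor, 104 with the gene's own lowest group mean, and 30 under all 3 floors. It also moved with the arrays, to 323 without Batf3-/- migratory replicate 3, 133 without WT migratory replicate 2 and 14 to 40 without any of the other 9.

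**Figure D4:**
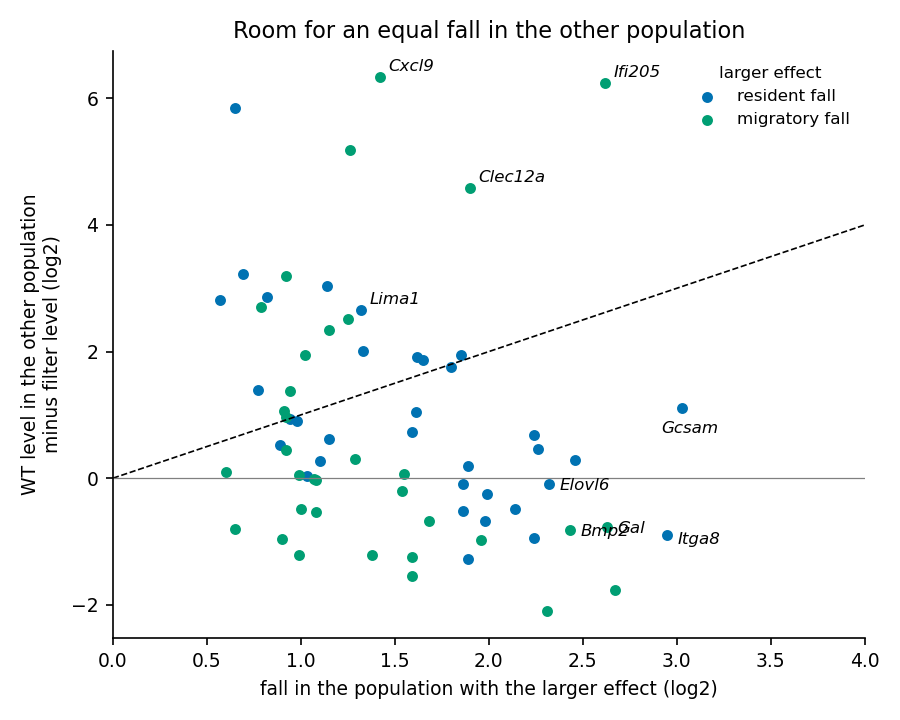
Fall in the population with the larger effect (horizontal, log2) against the room in the other population, the WT mean there minus the filter level (vertical, log2), for the 68 resident-fall and migratory-fall genes. Genes below the dashed line of equal values were set apart and genes below the zero line start under the filter level; Cxcl9, Ifi205 and Clec12a lie far above the dashed line, Itga8, Bmp2 and Gal below zero.

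Spleen arrays of the same genotypes gave values that the lymph node contrast had not used. They were a separate table of 8 arrays of another array type, from female mice, and compared 3 Batf3-/- with 3 WT arrays of Irf8VENUS+ DC1. In each of these groups 2 arrays were sorted on CD24 and XCR1 and 1 on CD24 alone, and 2 WT Irf8VENUS- arrays shared the fit. There 95 of 12875 genes were called (0.738%), 39 lower in Batf3-/- (0.303%) and 56 higher (0.435%), and 52.6% of all spleen genes tested had a negative effect. The 95 became 149 without WT spleen replicate 1 and 24 to 58 without any of the other 5 arrays compared. Of the 34 resident-fall genes, all tested in spleen, 33 had a negative effect and 12 were called lower, with a median of -1.15 against -0.02 over all genes. Of 24 resident-rise genes tested, 23 had a positive effect and 7 were called higher, with a median of 1.08. Of 22 migratory-fall genes tested, 11 had a negative effect and 0 were called (limma), with a median of 0.00. Of 46 migratory-rise genes tested, 18 had a negative effect and 0 were called, with a median of 0.08. Migratory-fall genes had 0 spleen calls under each lymph node setting tried; the sets were not recounted under other spleen settings. Migratory-rise genes had 1 called higher in spleen with array weights, 2 with codes A and B only and 3 without Batf3-/- migratory replicate 3, out of 755, 527 and 1176 tested.

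In spleen, some genes of the resident sets passed the test and others did not. Itga8 fell by 3.30 ± 0.24 in spleen DC1 (limma adjusted p = 0.00193) and Alpl by 2.38 ± 0.18 (limma adjusted p = 0.00193). Rtl8c, Fgd6 and Syne1 fell by 1.56, 1.60 and 1.65, and Snx22 by 1.12. Gpr82 and Ms4a4c rose by 1.49 and 1.65. Resident-set values that did not pass were -0.94 for Elovl6, -2.36 ± 0.45 for Gcsam (limma adjusted p = 0.07), 0.92 for Klrb1b and 1.28 for Tlr1. Arpin, with opposite effects in the node, had a spleen value of -0.14 ± 0.14. For migratory-set genes the spleen values were -0.17 ± 0.08 for Irf8, -0.07 ± 0.10 for Cxcl9, -0.14 ± 0.22 for Clec12a and -0.02 ± 0.29 for Tubb2b, none of which passed. Bmp2 and Il23r were not among the genes tested in spleen.

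**Figure D5:**
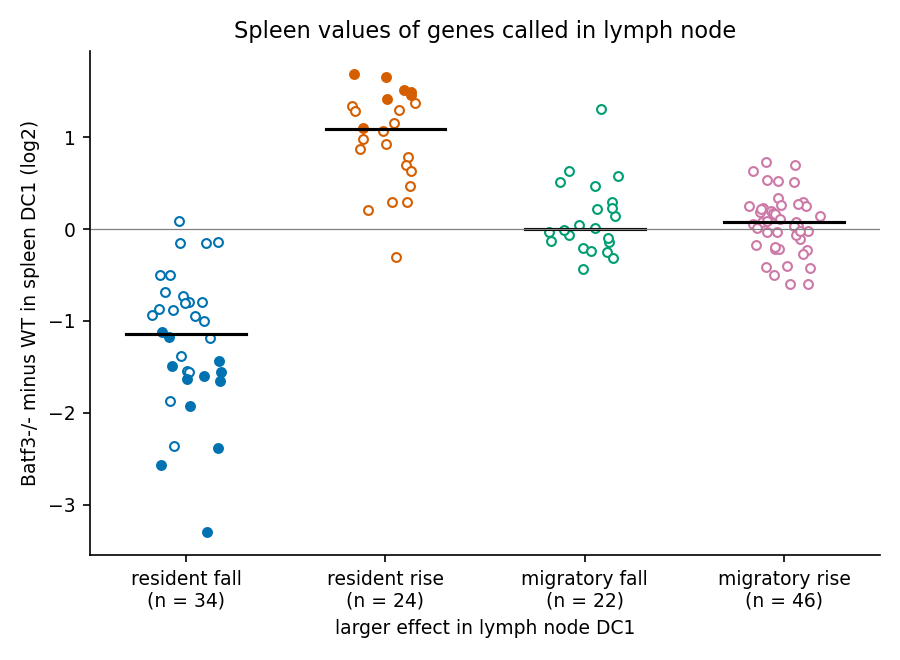
Batf3-/- minus WT in spleen DC1 (vertical, log2) for the called lymph node genes of each set that were tested in spleen (n under each name); filled points were called in spleen and bars are medians. Medians are -1.15 and 1.08 for the resident sets and 0.00 and 0.08 for the migratory sets.

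The SD of the arrays moved with genotype in migratory cells, where the 2 cannot be told apart. A term for array SD is sized by differences within groups, such as 2.07 for Batf3-/- migratory replicate 3 against 2.16 and 2.15. The contrast was also fitted with this term. Then 30 genes were called, 8 of them positive, and 11 of the 148 were among them: 4 resident-fall, 4 resident-rise, 3 migratory-fall and 0 migratory-rise genes. These 11 were 2610528A11Rik, Alpl, Gbp4, Gpr18, Grap, Itga8, Klrb1b, Pglyrp1, Plce1, Slc7a8 and Trim12a. All 148 kept their sign, and the median difference went from 1.65 to 1.23 in the resident-fall, from -1.58 to -1.34 in the resident-rise, from -1.46 to -1.20 in the migratory-fall and from 1.22 to 0.84 in the migratory-rise set. Irf8 went from 1.38 to 0.49 (limma adjusted p = 0.476), Mylip from 2.05 to 0.78 and Tubb2b from 2.90 to 1.66, while Itga8 had 2.75 and Klrb1b -3.49. With each array scaled to the same SD instead, 101 genes were called, and 24 resident-fall and 29 migratory-rise genes of the 148 remained. The part of array spread in the migratory-rise set was not tested beyond these fits.

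Arrays also shared codes in their titles. Codes A and B each hold 1 array of all 4 groups, and code C lacks WT migratory cells. Within codes A and B the difference was 2.40 and 2.26 for Itga8, 2.80 and 2.50 for Elovl6, and -2.62 and -2.80 for Klrb1b. For Irf8 it was 1.81 and 1.15 within the codes, for Tubb2b 2.58 and 3.44, and for Bmp2 -1.95 and -2.90. Tlr1 varied most among the named genes, with -1.62 and -4.23.

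Counts for gene lists are set against the share of all genes called for the difference, 0.721% positive and 0.52% negative. The lists were chosen with earlier results of these data known. List counts here and below, those of secreted factors included, therefore describe the lists and test nothing. Of 42 DC1 identity genes tested, 6 had a called positive and 2 a called negative difference, with a median of 0.41 against 0.12 over all genes. The positive ones were Irf8, Gcsam, Fgd6, Snx22, Fzd1 and Itga8 and the negative ones Cxcl9 and Ifi205. In resident cells 14 of the 42 were called lower and 1 higher (0.997% and 0.847% of all genes), and in migratory cells 9 lower and 4 higher (2.28% and 7.13% of all genes). Xcr1 fell in both, from 11.05 to 11.34 in WT resident to 9.53 to 10.20 in Batf3-/- resident cells and from 7.85 and 8.07 in WT migratory to 5.83 to 6.46 in Batf3-/- migratory cells, with a difference of -0.47 (limma adjusted p = 0.435). Of 21 type 2 dendritic cell genes 0 had a positive and 4 a negative difference (Clec10a, Mgl2, Tbx21 and Clec12a; median 0.18). Tbx21, the transcription factor T-bet, read 4.78 to 5.21 in WT resident and 5.57 to 5.92 in Batf3-/- resident cells, and its genotypes also stood apart in migratory cells in the other order (difference -1.11 ± 0.22, limma adjusted p = 0.0386).

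Among secreted factors, 4 of 24 dendritic cell cytokines and chemokines had a called negative difference (Bmp2, Gal, Ccl17 and Cxcl9) and 0 a positive one (0.52% and 0.721% of all genes), with a median of -0.42. Of 16 chemokine receptors 1 was called, Gpr183, with a median of -0.65. Of 49 maturation and migration genes 1 was called, Ccl17, while 5 were called higher in Batf3-/- resident cells (0.847% of all genes) and 8 higher and 1 lower in Batf3-/- migratory cells (7.13% and 2.28% of all genes). Ccr7 was 1.62 higher in Batf3-/- resident cells (limma adjusted p = 0.0183) and had a migratory effect of 0.67 ± 0.35, and the difference of -0.95 was not called (limma adjusted p = 0.289). Of 13 BATF and IRF factors 1 was called, Irf8, and of 39 other dendritic cell transcription factors 1, Tbx21, while 10 of the 39 were called higher in Batf3-/- migratory cells, against 7.13% of all genes. In the integrin and adhesion list 3 of 32 were called, Itga8 and Itga6 positive and Pecam1 negative. Toll-like receptors and adaptors gave 1 of 17 (Tlr1), and cross-presentation genes 1 of 24 (Rab27a).

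With 1.24% of all genes called, lists of this size hold few or no calls at the background share. No gene was called by limma in the lists for MHC class I presentation (16 tested, median 0.53), MHC class II presentation (14, 0.04), NF-kB (20, 0.41), AP-1 (23, 0.05), the type I interferon response (20, -0.16), the cell cycle (35, 0.16), cholesterol synthesis (18, 0.10), uptake receptors (20, 0.01), costimulation (23, 0.09), plasmacytoid dendritic cells (17, -0.20) and dissociation stress (23, 0.43). Markers of other cells had 0 of 14 called for T cells (median -0.35), 0 of 15 for B cells (-0.86) and 0 of 10 for macrophages and monocytes (0.46). Of the 15 B cell markers, 2 were called lower in Batf3-/- migratory cells (median effect -0.96) and 1 lower in Batf3-/- resident cells (median 0.09). Tbx21 was also the 1 called gene of 5 NK cell markers tested, and Pecam1 that of 8 stromal and endothelial markers. The gate genes Itgax, H2-Ab1, Cd24a, Sirpa and Ptprc were not called, with differences from -0.07 to 0.87, and the sign of Itgax, H2-Ab1, Cd24a and Ptprc changed under other scalings.

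Promoters of the called genes were read from RefSeq (build GRCm38.p6), from 250 bases before to 50 after the gene start, on the strand of the gene. The AP-1 element TGANTCA, the same on both strands, was in 7.81% of 32851 promoters and in 5.27% of 12036 promoters of tested genes. It was in 16.4% of promoters of genes with a negative difference (10 of 61) and in 1.08% of those with a positive difference (1 of 93). By set, the share was 2.70% for resident fall, 16.7% for resident rise, 16.2% for migratory fall and 0 of 56 for migratory rise. An interferon-type element, GAAA, any 2 bases and GAAA again, searched on both strands, was in 3.04% of promoters of tested genes, in 8.20% for a negative and in 2.15% for a positive difference. Composite elements to which BATF and IRF pairs are known to bind are GAAA directly before TGANTCA and TTTC with any 4 bases before TGANTCA. They overlap the AP-1 element and were in 0 promoters of called genes. Their shares were 0.0582% and 0.0499% of promoters of tested genes and 0.125% and 0.119% of all promoters. At such shares 0 matches among the promoters of called genes say little. A match is a description of letters in this window and no evidence of binding. The promoters of 4 genes, chosen after their values were seen, are shown because they hold these elements: Cxcl9 (chr5:92328030-92328329) and Irgm1 (chr11:48871371-48871670) with an AP-1 element and a negative difference, Ifi205 (chr1:174031706-174032005) with the interferon-type element, and Atp8b4 (chr2:126491504-126491803), the 1 gene with a positive difference that holds TGANTCA. All 4 genes lie on the minus strand, and capitals mark the matched letters.
Cxcl9: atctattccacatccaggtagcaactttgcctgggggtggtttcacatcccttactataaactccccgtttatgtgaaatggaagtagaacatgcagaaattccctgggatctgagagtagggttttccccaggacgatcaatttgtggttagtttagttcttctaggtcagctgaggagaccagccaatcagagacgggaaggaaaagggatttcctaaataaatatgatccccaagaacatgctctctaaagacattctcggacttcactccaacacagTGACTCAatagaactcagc
Irgm1: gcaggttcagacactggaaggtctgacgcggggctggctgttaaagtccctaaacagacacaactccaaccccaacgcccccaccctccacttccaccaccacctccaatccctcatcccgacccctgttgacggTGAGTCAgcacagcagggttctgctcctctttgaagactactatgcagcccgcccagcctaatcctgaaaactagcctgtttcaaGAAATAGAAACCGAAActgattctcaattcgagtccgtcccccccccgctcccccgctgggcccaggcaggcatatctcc
Ifi205: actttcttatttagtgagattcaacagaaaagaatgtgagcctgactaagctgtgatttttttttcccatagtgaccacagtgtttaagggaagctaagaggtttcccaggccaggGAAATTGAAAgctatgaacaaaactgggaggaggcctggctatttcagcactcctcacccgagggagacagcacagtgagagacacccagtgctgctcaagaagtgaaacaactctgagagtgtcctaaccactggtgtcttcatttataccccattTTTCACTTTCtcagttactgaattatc
Atp8b4: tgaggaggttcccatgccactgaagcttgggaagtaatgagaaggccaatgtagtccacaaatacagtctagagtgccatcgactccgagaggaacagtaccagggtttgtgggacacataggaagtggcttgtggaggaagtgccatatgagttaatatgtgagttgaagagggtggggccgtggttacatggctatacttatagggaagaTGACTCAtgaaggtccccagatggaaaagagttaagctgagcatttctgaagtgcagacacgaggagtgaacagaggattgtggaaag

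The element of Cxcl9 begins 32 bases after the gene start and that of Irgm1 115 bases before it. Irgm1, an interferon-inducible GTPase, also holds the interferon-type element in overlapping copies 30 and 24 bases before its start. Its levels were 5.51, 5.66 and 5.74 in WT resident, 6.08, 6.20 and 6.73 in Batf3-/- resident, 5.15 and 5.56 in WT migratory and 4.55, 4.72 and 4.98 in Batf3-/- migratory cells. The genotypes were apart in both populations and in opposite order, with a difference of -1.30 ± 0.28 (limma adjusted p = 0.0468), although neither effect alone passed. Atp8b4, an ATPase of the lipid flippase family and of the resident-fall set, read 7.12 to 7.78 in WT resident, 5.52 to 5.54 in Batf3-/- resident, 4.06 and 4.54 in WT migratory and 3.52 to 3.86 in Batf3-/- migratory cells, and its element lies 38 bases before the gene start.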

How the data were processed

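RNA of sorted DC1 was measured on Affymetrix arrays. The deposited lymph node values are on a log2 scale (1.35 to 13.96), and the deposited spleen values are linear array intensity, of which log2 was taken. Per the submitters' processing notes, the authors ran RMA (version not given in the sources used here). The number of arrays limits the precision, and the tables give no background per probe set.

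Of 35556 lymph node probe sets, 21789 had 1 gene symbol, 1621 several and 12146 none; the several-symbol and unnamed ones were left out and the probe set with the highest mean stood for each of 19938 genes. Genes were tested where at least 2 arrays reached the median of all values (4.82 in lymph node and 5.04 in spleen). A gene that is high in 1 group alone could therefore enter the test through that group. A linear model of 4 groups and 11 arrays was fitted with limma 3.58.1 (R 4.3.3), with moderated statistics under a mean-variance trend and Benjamini-Hochberg adjustment over all genes tested. The spleen fit had 8 arrays with the sort gate as a term. The procedure was tested on simulated data. Alternatives changed the filter, normalization, probe set rule, array spread, weights, variance model, block, floor and arrays.

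Members and gene lists were chosen with earlier results of these data known. Named genes were Batf3, Irf8 and the gate genes, the 12 called genes with the largest difference in each direction, the 4 largest of each combination of signs, up to 2 per list and those nearest the floor rule, leaving out antigen receptor segments, microRNAs, snoRNAs and provisional symbols outside the lists. Lipa, Tubb2a, Cxcl9, Ifi205, Clec12a, Itga6, Alpl, Plce1, Irgm1, Atp8b4, Trpm2, Igkv9-120, the genes listed as still called under other fits or as having room, and the markers of the label check were named outside this rule, after their values were seen.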

Additional observations from a re-analysis of the deposited data

Results flagged for a closer look

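Of the results above, 148 genes had a Batf3 effect that differed between migratory and resident DC1 by the test of that difference (limma). No group had 4 or more arrays, so single arrays were not screened as far from their group. The named genes with a positive difference, in log2 units of migratory minus resident effect, were Tubb2b (2.90), Itga8 (2.51), Elovl6 (2.41), Pi4k2a (2.33), Fzd1 (2.25), Arpin (2.17), Slc7a8 (2.15), Snx22 (2.13), Rtl8c (2.08), Mylip (2.05), Fgd6 (2.0), Gcsam (1.99), Mief1 (1.75), Irf8 (1.38), Syne1 (1.07) and Dcaf1 (0.87). Those with a negative difference were Tlr1 (-2.91), Klrb1b (-2.87), Ms4a4c (-2.70), Pecam1 (-2.57), Bmp2 (-2.56), Gpr82 (-2.48), Gal (-2.47), Clec10a (-2.29), Ms4a6d (-2.28), Cd69 (-2.21), AF067061 (-1.95), Il23r (-1.89), Pglyrp1 (-1.84), Ccl17 (-1.67), Casp4 (-1.53), Gpr183 (-1.52), Mgl2 (-1.42), Rab27a (-1.19) and Tbx21 (-1.11).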

How the results depend on the processing

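The count of 148 genes became 30 with the array SD as a term, 1110 with array weights, 297 with no filter, 543 with the replicate block (title code), 285 with the code as a random block, 749 with codes A and B only, 93 after median centring, 101 after scaling to the same SD or with a stricter filter, and 17 to 1713 without single arrays; it was 132 to 162 under quantile normalization, mean of probe sets, no trend and robust fits. The positive share of calls, 58.1%, was 26.7% with the SD term, 36.7% with no filter, 71.3% with the block, 79.1% with weights and 80.5% with codes A and B only. The median difference over all genes, 0.12, was 0.20 after median centring, 0.05 after quantile normalization, 0.01 with the SD term and -0.04 with no filter.
The cause of these shifts was not tested. The filter settings also changed the number of genes, and the leave-out settings the number of arrays. Deviations of resident and migratory arrays with the same code correlated at 0.416, 0.21 and 0.479 in Batf3-/- and at 0.147 and 0.0971 in WT. Over all pairs with the same code the values went down to -0.157, between WT and Batf3-/- migratory replicate 1. Not every pair was above 0.1, so the codes were not taken to pair the arrays.

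The 63 genes set apart for lack of room were 31 with the first quartile as floor, 104 with the gene's own lowest group mean, 214 with array weights, 198 with no filter, 161 with the replicate block, 101 with the random block, 122 with codes A and B only, 38 with the stricter filter and 14 to 323 without single arrays. The 95 spleen genes were 24 to 149 without single arrays. Gate genes that were not called changed sign: Cd24a (-0.07) to 0.64 with the SD term, 0.01 after median centring and -0.21 to 0.09 over the leave-outs; H2-Ab1 (-0.04) to 0.04 after median centring, 0.07 with codes A and B only and -0.10 to 0.01; Itgax (0.20) to -1.36 with the SD term, -0.07 after quantile normalization and -0.11 to 0.70; Ptprc (0.25) to -0.54 with the SD term and -0.00 after quantile normalization. None of the 35 called named genes changed sign under any of these settings. Of these 35, 4 stayed called with the SD term, 28 after median centring, 30 after scaling to the same SD, 32 after quantile normalization, 28 of the 30 tested with the stricter filter, 35 with the replicate block and 10 to 35 without single arrays.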
